A study of Homo sapiens with 4 samples.

Results

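Nucleolar ribosome biogenesis factors are the proteins that transcribe, cut, modify and fold ribosomal RNA (rRNA) and assemble it with ribosomal proteins into the 40S and 60S subunits. Here 40 such genes, listed by name for nucleolar ribosome assembly and rRNA processing, were followed among the 20307 genes of a ribosome profiling table from PANC-1 cells, and all 40 were found in it by Ensembl identifier. PANC-1 is an established human pancreatic ductal adenocarcinoma line. The libraries hold ribosome-protected fragments, the mRNA stretches shielded from nuclease by translating ribosomes, from 2 negative control cultures and 2 cultures depleted of FBXO32, an F-box protein that selects substrates for a ubiquitin ligase. The labels name no other treatment or genetic change, and cells of both groups were harvested at 80% to 90% confluency after exposure to 100 μg/mL cycloheximide for 2 min to stop ribosomes. The labels do not say how FBXO32 was depleted, whether the depleted cells are 1 clone, or how the bioreplicates of a group were separated. The p-values therefore rest only on the spread between these libraries, which for most factors was pooled over genes.

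Ribosome assembly begins in the nucleolus, where RNA polymerase I makes a long precursor holding the 18S, 5.8S and 28S rRNAs. Small nucleolar ribonucleoproteins (snoRNPs) modify this precursor, with box C/D particles guiding 2′-O-methylation and box H/ACA particles guiding pseudouridylation. The small subunit (SSU) processome then cuts and folds the 18S part, while separate sets of GTPases, AAA ATPases and scaffold proteins ripen the pre-60S particle. Growing tumour cells are known for prominent nucleoli and high demand for these factors.

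Each gene had 1 TPM value per library (a gene's share of its library's footprints, scaled by gene length). The length definition was not given, so comparisons of levels between genes are approximate, and the depth behind each value is unknown. FBXO32 itself stood at 18.1 and 21.6 TPM in control cells and 14.3 and 12.9 TPM after depletion, a difference that missed the threshold (limma adjusted p = 0.429), so depletion is known from the labels alone. The 5 markers of the line (KRT8, KRT18, KRT7, KRT19 and VIM) were above 0 in every library and summed to 3530 and 3436 TPM in control cells and 2792 and 973 TPM after depletion. VIM and KRT18 held most of this sum, while KRT7 had only 0.885 and 1.64 TPM in control cells and 2.62 and 3.60 TPM after depletion. KRT8, KRT18 and VIM were themselves called lower (limma adjusted p = 0.00574, 0.0402 and 0.00844), and KRT7 and KRT19 did not pass. Of 12 markers of blood, endothelial, fibroblast, acinar and islet cells, 6 (PTPRC, CD3E, CDH5, PRSS1, INS and GCG) were listed at 0 throughout. The 12 summed to 120.2 and 91.5 TPM in control cells and 36.5 and 39.2 TPM after depletion, nearly all of it COL1A1, and its part in the results was not tested. Testing covered the 11623 genes that reached 1 TPM in 2 or more libraries, of which 2268 were called lower in the depleted libraries and 722 higher (limma on log2(TPM + 1), Benjamini-Hochberg adjusted p under 0.05). Dividing the libraries by median-ratio size factors moved the median log2 fold change of all tested genes from -0.16 to 0.02 and gave 1904 lower and 1251 higher. Control replicate 1 weighed most on the calls, since 347 genes were called lower and 37 higher without it.

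Footprints of the biogenesis factors were lower in the FBXO32-depleted libraries. Of the 40, 28 fell, 0 rose and 12 did not pass (limma), so 70% were called lower, where 19.5% of all tested genes were called lower and 6.21% higher. At an unadjusted p under 0.05, 30 were lower and 1, NOP10, was higher. For 32 factors neither depleted value reached the lower control value, which was so for 37.6% of all tested genes, and for 1 factor both exceeded the higher control value, which was so for 26.8%. These shares of all tested genes apply also to the counts and the groups without overlap given for each role below. The median log2 fold change of the 40 was -1.54, beside -0.16 for all tested genes. Among the 28 that fell, the mean level left in the depleted libraries ran from 8.09% of control for NAT10 to 56.7% for FBL, with a median of 23.8%. Together the 40 factors held 1.45% and 1.19% of all TPM in control cells against 0.599% and 0.439% after depletion. NPM1 and NCL made up much of that total, and without them the sum went from 4799 and 4861 TPM to 3644 and 2841 TPM. Between the depleted libraries, replicate 2 was the lower for 34 of the 40 factors (85%), against 61.1% of all tested genes. Between the controls, replicate 2 was the lower for 28 of the 40 (70%), against 50.6% of all tested genes. No RNA-seq of these cells was used here, so less mRNA and less translation of it cannot be told apart, nor can fewer cells with a transcript and less of it per cell.

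**Figure D1:**
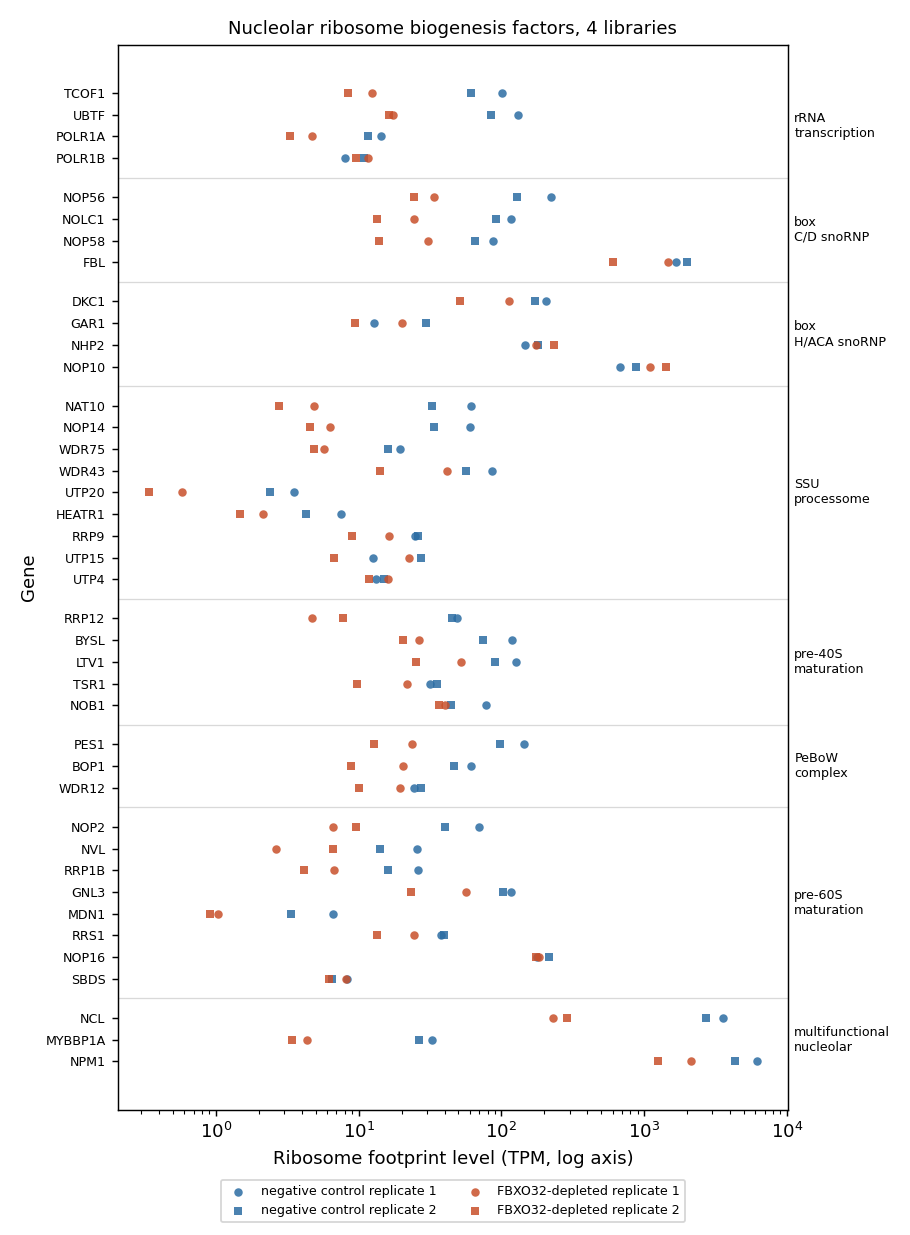
Footprint level (TPM, log axis) of each of the 40 factors in the 4 libraries, grouped by role, with blue for negative control, orange for FBXO32-depleted, circles for replicate 1 and squares for replicate 2. For 32 factors both orange points lie left of both blue points, and for NOP10 both lie right of them.

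NPM1 and NCL had the highest control footprint levels of the 40 and fell the furthest in absolute TPM, a measure that grows with the starting level. FBL, at rank 3 in the controls, kept 56.7% of its control mean, and NOP10, at rank 4, was not lower. NCL (ENSG00000115053, GRCh38 chromosome 2, 231453531 to 231483641, minus strand), or nucleolin, binds nascent rRNA and nucleolar chromatin, and had 3562 and 2687 TPM in control cells against 231 and 289.7 TPM after depletion. Its log2 fold change was -3.58 ± 0.36 (SE, limma adjusted p = 4.09e-20), a 12.0-fold lower mean and the largest fall of the 40 on this scale. NPM1 (ENSG00000181163, chromosome 5, 171387116 to 171411137, plus strand), or nucleophosmin, the granular-component chaperone that also exports subunits, had 6177 and 4329 TPM in control cells against 2118 and 1254 TPM after depletion. The difference was -1.66 ± 0.34 (SE, limma adjusted p = 2.25e-05), and the confidence interval, from -2.34 to -0.99, lay above that of NCL, from -4.28 to -2.87. Both remained well expressed, with NPM1 the highest of the 40 in each group and NCL going from rank 2 to rank 4. MYBBP1A, a nucleolar protein of rRNA synthesis and processing, had 32.7 and 26.6 TPM in control cells against 4.35 and 3.44 TPM after depletion, a log2 fold change of -2.65 ± 0.46 (SE, limma adjusted p = 3.52e-07). The groups did not overlap for any of these genes. GENCODE lists 45 named pseudogenes of NPM1 and 2 of NCL, which makes their levels uncertain if the counting divided reads among copies. The NPM1 call ended without control replicate 1 (log2 fold change -1.41).

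Of the factors that act in rRNA transcription, 3 of 4 fell. UBTF (chromosome 17, 44205033 to 44221626, minus strand), the upstream binding factor that opens rDNA promoters, had 131.3 and 85.1 TPM in control cells against 17.5 and 16.3 TPM after depletion, a log2 fold change of -2.58 ± 0.42 (SE, limma adjusted p = 5.28e-08). TCOF1 (chromosome 5, 150357629 to 150400308, plus strand), or treacle, which couples polymerase I to rRNA modification and is mutated in Treacher Collins syndrome, had 101 and 61.2 TPM in control cells against 12.5 and 8.41 TPM after depletion, a difference of -2.82 ± 0.43 (SE, limma adjusted p = 6.45e-09). For each, both depleted values lay far under the lower control value, and these calls held under every alternative tried. POLR1A, the largest catalytic subunit of polymerase I, had 14.3 and 11.7 TPM in control cells against 4.69 and 3.33 TPM after depletion, with a log2 fold change of -1.49 ± 0.47 (SE, limma adjusted p = 0.0103). POLR1B, its partner at the active site, had 8.03 and 10.9 TPM in control cells against 11.6 and 9.52 TPM after depletion, and did not pass (0.15 ± 0.46, limma adjusted p = 0.846). The confidence interval of POLR1B ran from -0.76 to 1.06 on the log2 scale and its groups overlapped. The POLR1A call ended without control replicate 1 (log2 fold change -1.35), without control replicate 2 (-1.62) and without depleted replicate 2 (-1.29). The POLR1A call also ended with the coding-length trend removed (log2 fold change -0.46) and without the filter on low values (-1.49).

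The 4 genes listed for box C/D snoRNPs, 3 core proteins and a chaperone that serves other snoRNPs too, fell with log2 fold changes from -2.53 to -0.95. NOP56 (chromosome 20, 2652145 to 2658393, plus strand), a core scaffold of the methylation particle, had 222 and 129 TPM in control cells against 33.5 and 24.5 TPM after depletion, a log2 fold change of -2.53 ± 0.40 (SE, limma adjusted p = 2.67e-08). NOP58, the paralogous scaffold at the other end of the particle, had 86.8 and 65.6 TPM in control cells against 30.5 and 13.8 TPM after depletion, a log2 fold change of -1.82 ± 0.42 (SE, limma adjusted p = 2.32e-04). NOLC1 (Nopp140), a chaperone that carries snoRNPs between Cajal bodies and nucleoli, had 116 and 92.0 TPM in control cells against 24.4 and 13.5 TPM after depletion, a log2 fold change of -2.44 ± 0.42 (SE, limma adjusted p = 2.47e-07). For these 3 the highest depleted value lay clearly under the lowest control value. FBL (chromosome 19, 39834458 to 39846414, minus strand), or fibrillarin, the methyltransferase of the same particle, had 1657 and 2004 TPM in control cells against 1474 and 603 TPM after depletion. Its first depleted library lay just under the controls and only the second stood well below, and the log2 fold change was -0.95 ± 0.35 (SE, limma adjusted p = 0.0326). SNU13, the remaining core protein of the box C/D particle, is not among the 40 and was named after its values were seen. It had 528 and 523 TPM in control cells against 574 and 804 TPM after depletion and did not pass (0.37 ± 0.37, limma adjusted p = 0.487), with both depleted values above both controls. Calls ended without control replicate 1 for FBL and NOP58 (log2 fold changes -1.09 and -1.62), without control replicate 2 for FBL (-0.81) and without depleted replicate 2 for FBL (-0.31). The FBL call also ended with the coding-length trend removed (log2 fold change -0.93), with median-ratio scaling (-0.75) and without the filter on low values (-0.95). It ended too with no variance trend in limma (-0.95).

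Of the 4 box H/ACA snoRNP genes, 1 fell, where 19.5% of all tested genes were called lower. DKC1 (chromosome X, 154762742 to 154777689, plus strand), or dyskerin, the pseudouridine synthase that also stabilises telomerase RNA, had 204 and 171 TPM in control cells against 112 and 51.6 TPM after depletion, a log2 fold change of -1.28 ± 0.39 (SE, limma adjusted p = 0.00756). Its 3 small partners did not pass. NOP10, the smallest protein of the set, with a coding length of 192 nt, had 675 and 879 TPM in control cells against 1107 and 1425 TPM after depletion, a difference of 0.70 ± 0.36 (SE, limma adjusted p = 0.132). NOP10 was the 1 factor with both depleted values above both controls. NHP2, an RNA-binding core protein with 2 named pseudogenes, had 147 and 181 TPM in control cells against 175 and 235 TPM after depletion, a log2 fold change of 0.32 ± 0.38 with overlapping groups. GAR1, the glycine- and arginine-rich subunit of the mature particle, had 12.8 and 29.4 TPM in control cells against 20.3 and 9.40 TPM after depletion, a log2 fold change of -0.46 ± 0.45, and overlapped likewise. The DKC1 call ended without control replicate 1 (log2 fold change -1.16), without control replicate 2 (-1.41) and without depleted replicate 2 (-0.73). The DKC1 call also ended with the coding-length trend removed (log2 fold change -0.93) and without the filter on low values (-1.28).

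In the SSU processome, 6 of 9 genes fell, led by NAT10 and NOP14. NAT10 (chromosome 11, 34105602 to 34147670, plus strand), the acetyltransferase that makes N4-acetylcytidine in 18S rRNA, had 61.3 and 32.7 TPM in control cells against 4.85 and 2.76 TPM after depletion, a log2 fold change of -3.29 ± 0.46 (SE, limma adjusted p = 7.10e-11) and a 12.4-fold lower mean. NOP14, a stable processome subunit, had 60.7 and 33.6 TPM in control cells against 6.32 and 4.602 TPM after depletion, a log2 fold change of -2.85 ± 0.45 (SE, limma adjusted p = 1.85e-08). For both genes every depleted value was far under the lower control value. The next 5 genes code for subunits of one early complex that binds the 5′ external spacer of the precursor. WDR75 had 19.6 and 16.0 TPM in control cells against 5.74 and 4.91 TPM after depletion, a log2 fold change of -1.57 ± 0.46 (SE, limma adjusted p = 0.00539). WDR43 had 85.7 and 56.7 TPM in control cells against 41.9 and 14.1 TPM after depletion, a log2 fold change of -1.47 ± 0.42 (SE, limma adjusted p = 0.004). HEATR1, the large HEAT-repeat subunit, had 7.52 and 4.26 TPM in control cells against 2.13 and 1.49 TPM after depletion, a log2 fold change of -1.26 ± 0.48 (SE, limma adjusted p = 0.0376). The groups of these 3 did not overlap. UTP15 had 12.6 and 27.4 TPM in control cells against 22.6 and 6.73 TPM after depletion, a log2 fold change of -0.54 ± 0.45. UTP4 had 13.2 and 15.2 TPM in control cells against 16.1 and 11.9 TPM after depletion, a log2 fold change of -0.029 ± 0.46. For both the groups overlapped, so the complex held genes on either side of the test. UTP20, a very long scaffold of the processome, had 3.56 and 2.42 TPM in control cells against 0.579 and 0.339 TPM after depletion, a log2 fold change of -1.44 ± 0.45 (SE, limma adjusted p = 0.00991). It was the lowest of the 40 after depletion, and at such levels the added 1 TPM makes the fold smaller. RRP9, the U3 snoRNA binding protein, had 24.7 and 26.0 TPM in control cells against 16.3 and 8.98 TPM after depletion and did not pass (-1.005 ± 0.45, limma adjusted p = 0.0828) although its groups did not overlap. Calls ended without control replicate 1 for WDR43, WDR75, UTP20 and HEATR1 (log2 fold changes -1.18, -1.43, -1.23 and -0.91), without control replicate 2 for WDR43 and HEATR1 (-1.77 and -1.61), without depleted replicate 1 for HEATR1 (-1.43) and without depleted replicate 2 for WDR43, UTP20 and HEATR1 (-0.72, -1.32 and -1.10). Calls also ended with the coding-length trend removed for WDR43, WDR75, UTP20 and HEATR1 (log2 fold changes -0.88, -0.85, -0.26 and -0.16), with median-ratio scaling for HEATR1 (-1.11) and without the filter on low values for WDR43 and HEATR1 (-1.47 and -1.26).

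The E-box CACGTG, bound by MYC among other factors and known from promoters of ribosome biogenesis genes, was searched in the 250 bases before each start in RefSeq's promoters (GRCh38.p14), where 33 of the 40 factors had an entry. It was found in 5 of 33 (15.2%), against 9.1% of 9370 tested genes and 9.8% of the 1866 of those called lower. It was in 3 of the 22 factors with an entry that fell and in 2 of the 11 that did not pass. The motif reads the same on both strands. Shown, since they place carriers on both sides of the test side by side, are the 60 bases before the RefSeq start of the 4 factors with a copy less than 17 bases from it, all written 5′ to 3′ on the gene's strand with the motif in capitals. NAT10 and UTP20 fell, while NOP10 and UTP4 did not pass.
NAT10: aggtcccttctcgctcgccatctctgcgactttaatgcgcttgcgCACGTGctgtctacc
UTP20: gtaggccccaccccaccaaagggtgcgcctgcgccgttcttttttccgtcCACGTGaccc
NOP10: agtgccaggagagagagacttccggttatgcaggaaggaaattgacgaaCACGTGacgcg
UTP4: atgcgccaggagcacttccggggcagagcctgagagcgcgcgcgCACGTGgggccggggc
These windows lie at chr11:34105569-34105628 (+), chr12:101280045-101280104 (+), chr15:34343137-34343196 (-) and chr16:69132589-69132648 (+). By the GENCODE gene bounds the motifs of NAT10, NOP10 and UTP4 lie inside the gene, and only that of UTP20 lies before its start. MDN1 was the other carrier, with its copy starting 155 bases before the RefSeq start. The motif CCGGAAG, which holds the core bound by ETS factors, was read on both strands and was in 9 of the 33 (27.3%). It was in 17.2% of the 9370 genes and in 17.9% of the 1866 of those called lower, so these shares hardly differed across the table. This motif was in 3 of the 22 that fell and in 6 of the 11 that did not pass.

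Of 5 factors of late 40S maturation, 4 fell. RRP12, a HEAT-repeat export factor of pre-ribosomes, had 49.0 and 45.3 TPM in control cells against 4.73 and 7.75 TPM after depletion, a log2 fold change of -2.76 ± 0.45 (SE, limma adjusted p = 4.74e-08). BYSL, or bystin, which with its partners shapes the pre-40S platform, had 118 and 74.7 TPM in control cells against 26.4 and 20.3 TPM after depletion, a log2 fold change of -1.97 ± 0.42 (SE, limma adjusted p = 4.09e-05). LTV1, a pre-40S factor whose release precedes final maturation, had 127 and 90.4 TPM in control cells against 52.3 and 25.1 TPM after depletion, a log2 fold change of -1.54 ± 0.41 (SE, limma adjusted p = 0.00157). All 3 had depleted values well apart from the controls. TSR1, a GTPase-like factor at the subunit interface, had 31.7 and 35.3 TPM in control cells against 21.9 and 9.79 TPM after depletion, a log2 fold change of -1.13 ± 0.44 (SE, limma adjusted p = 0.044). NOB1, the endonuclease that makes the 3′ end of 18S rRNA, had 78.6 and 44.7 TPM in control cells against 40.2 and 36.3 TPM after depletion and did not pass (-0.62 ± 0.42, limma adjusted p = 0.275), with its second control only slightly above the depleted values. Calls ended without control replicate 1 for BYSL, TSR1 and LTV1 (log2 fold changes -1.65, -1.21 and -1.29), without control replicate 2 for TSR1 (-1.06) and without depleted replicate 2 for TSR1 and LTV1 (-0.59 and -1.02). Calls also ended with the coding-length trend removed for TSR1 (log2 fold change -0.42), with median-ratio scaling for TSR1 (-0.94) and without the filter on low values for TSR1 and LTV1 (-1.13 and -1.54).

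The PeBoW complex, a trimer of PES1, BOP1 and WDR12 needed to process the 5.8S and 28S part of the precursor, had 2 of its 3 genes fall. PES1 (chromosome 22, 30576625 to 30607083, minus strand), or pescadillo, had 144 and 97.3 TPM in control cells against 23.9 and 12.9 TPM after depletion, a log2 fold change of -2.68 ± 0.42 (SE, limma adjusted p = 9.98e-09). BOP1 had 61.0 and 46.3 TPM in control cells against 20.4 and 8.84 TPM after depletion, a log2 fold change of -1.90 ± 0.44 (SE, limma adjusted p = 1.89e-04). WDR12 had 24.6 and 27.3 TPM in control cells against 19.7 and 10.1 TPM after depletion and did not pass (-0.83 ± 0.45, limma adjusted p = 0.16). The groups of each gene did not overlap, and PES1, the most abundant of the trimer in the controls, came down to a level near those of its partners. The BOP1 call ended without control replicate 1 (log2 fold change -1.71).

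Of 8 other pre-60S factors, 5 fell. NOP2 (chromosome 12, 6556863 to 6568691, minus strand), a methyltransferase of 28S rRNA, had 69.3 and 40.5 TPM in control cells against 6.67 and 9.55 TPM after depletion, a log2 fold change of -2.58 ± 0.44 (SE, limma adjusted p = 2.50e-07). NVL, an AAA ATPase that releases factors from pre-60S particles, had 25.5 and 14.1 TPM in control cells against 2.63 and 6.60 TPM after depletion, a log2 fold change of -1.93 ± 0.47 (SE, limma adjusted p = 4.18e-04). RRP1B, an rRNA processing protein of the pre-60S particle, had 25.9 and 16.2 TPM in control cells against 6.72 and 4.12 TPM after depletion, a log2 fold change of -1.78 ± 0.46 (SE, limma adjusted p = 0.00121). None of these groups overlapped. GNL3, or nucleostemin, a nucleolar GTPase of proliferating cells, had 118 and 103 TPM in control cells against 56.8 and 23.4 TPM after depletion, a log2 fold change of -1.57 ± 0.41 (SE, limma adjusted p = 0.00121). MDN1, a giant AAA ATPase with the longest coding sequence of the 40, had 6.58 and 3.38 TPM in control cells against 1.04 and 0.918 TPM after depletion, a log2 fold change of -1.54 ± 0.47 (SE, limma adjusted p = 0.00749). The 3 that did not pass included RRS1, which helps load the 5S particle, with 37.8 and 39.7 TPM in control cells against 24.5 and 13.4 TPM after depletion and -1.05 ± 0.44 (limma adjusted p = 0.0582). RRS1 did not overlap between groups. NOP16, a pre-60S assembly factor, had 178 and 215 TPM in control cells against 184 and 174 TPM after depletion, a log2 fold change of -0.13 ± 0.38 with a confidence interval from -0.88 to 0.62. SBDS, which with a GTPase evicts eIF6 from 60S subunits in the cytoplasm, had 8.35 and 6.53 TPM in control cells against 8.21 and 6.24 TPM after depletion, a log2 fold change of -0.038 ± 0.47 with an interval from -0.96 to 0.89. For both the groups overlapped. Calls ended without control replicate 1 for RRP1B, GNL3, NVL and MDN1 (log2 fold changes -1.45, -1.47, -1.52 and -1.14), without control replicate 2 for GNL3 (-1.66) and without depleted replicate 2 for GNL3 and MDN1 (-0.94 and -1.50). Calls also ended with the coding-length trend removed for RRP1B, NVL and MDN1 (log2 fold changes -1.10, -1.19 and -0.22) and without the filter on low values for GNL3 and MDN1 (-1.57 and -1.54).

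**Figure D2:**
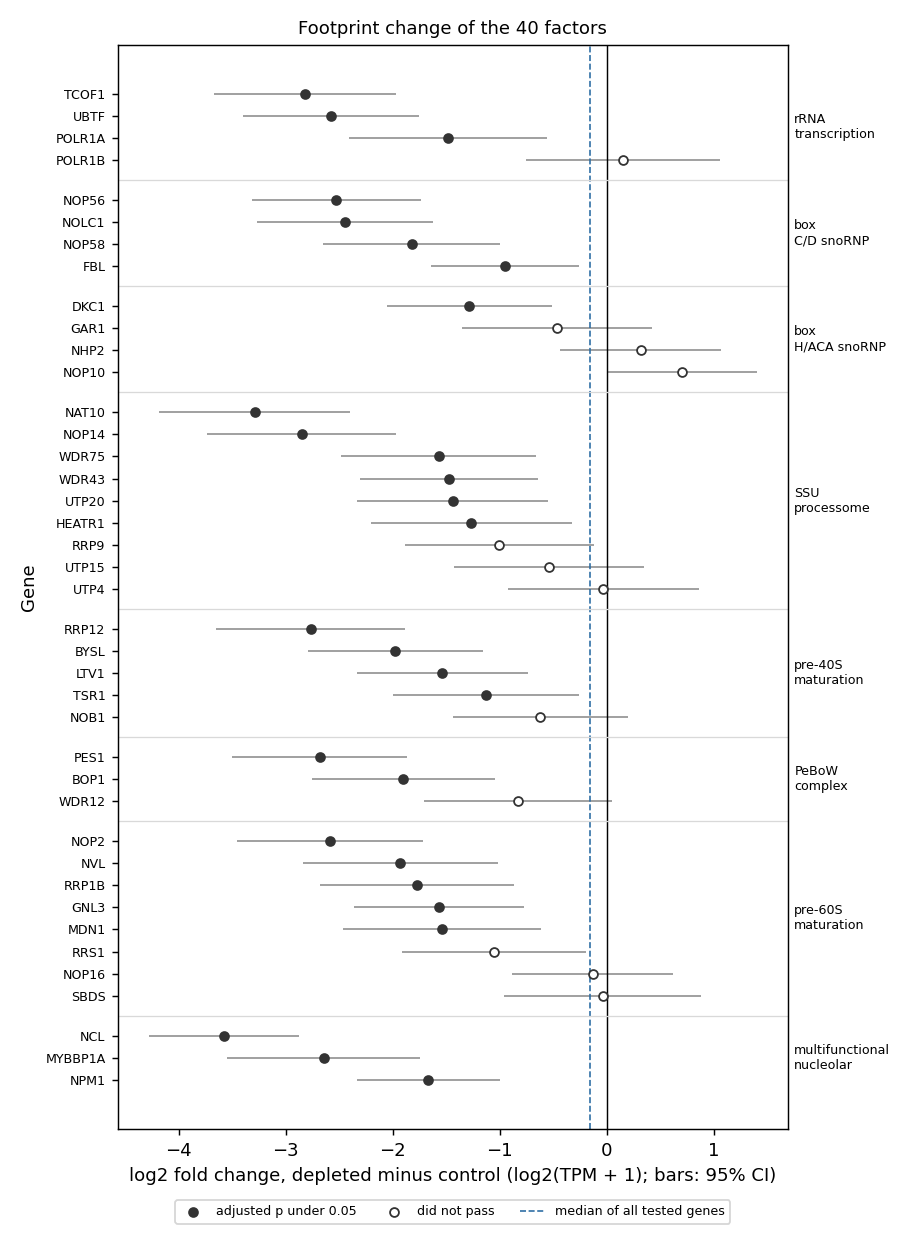
Log2 fold change (depleted minus control, log2(TPM + 1) scale, horizontal axis) of each factor with its 95% confidence interval, filled where the limma adjusted p was under 0.05, with the median of all tested genes at -0.16 dashed. The 28 filled points all lie left of 0, from -3.58 for NCL to -0.95 for FBL.

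The size of the change followed coding length within the set, as it did across the table. Coding lengths from GENCODE 29 ran from 192 nt for NOP10 to 16788 nt for MDN1, with a median of 2065.5 nt. Across the 40 factors Spearman's rho between coding length and log2 fold change was -0.53, and across 11525 tested genes it was -0.46. These are descriptions over genes that share the same 4 libraries. In the class up to 750 nt, 0 of 5 factors fell (limma; 0 at an unadjusted p under 0.05), and 6.02% of all tested genes of that length were called lower. Over 750 and up to 1500 nt, 4 of 8 factors fell, and 13.5% of all genes. Over 1500 and up to 3000 nt, 16 of 18 factors fell, and 26% of all genes, with medians of -1.86 and -0.50. Over 3000 nt, 8 of 9 factors fell, and 41.2% of all genes, with medians of -1.54 and -0.91. Of the 35 factors over 750 nt, all but UTP4 and POLR1B lay under the median of all genes of their class, and in the shortest class their median was -0.04 where that of all genes was 0.46. When the trend with coding length was removed from the depleted libraries, 17 factors were called lower (42.5%), against 10.7% of all genes lower and 7.59% higher, and the median of the factors was -0.93. NCL (-2.95), NAT10 (-2.47) and PES1 (-2.22) had the lowest log2 fold changes then.

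**Figure D3:**
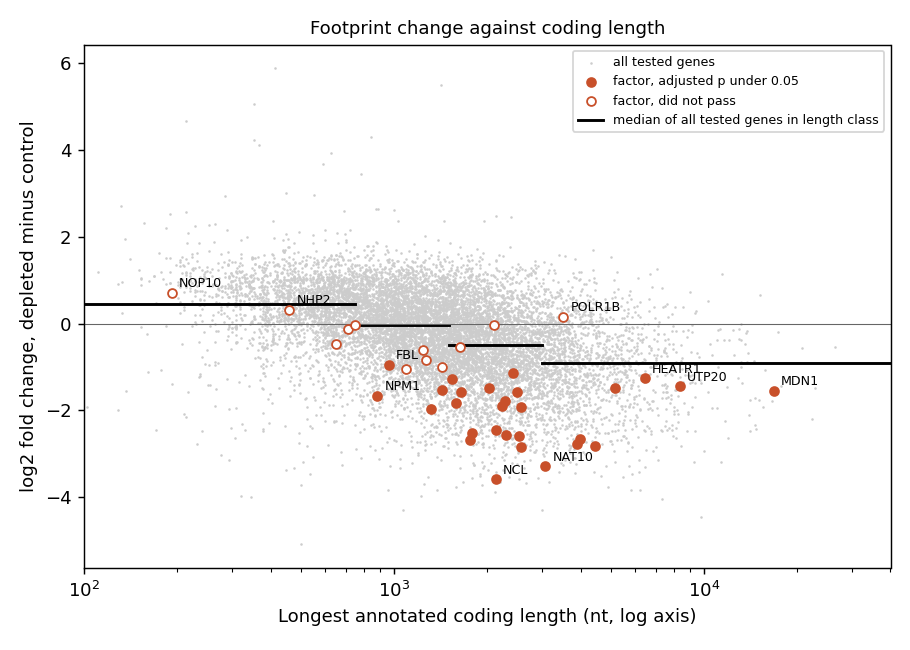
Log2 fold change (depleted minus control) against the longest annotated coding length (nt, log axis) for all tested genes with a length in grey and the 40 factors in orange, filled where the limma adjusted p was under 0.05; black bars give the median of all genes in 4 length classes. Of the factors over 750 nt, UTP4 and POLR1B lie above the bar of their class and the others below it.

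The ratio between subunits of a complex within a library differed between the groups for several pairs. These ratios of TPM, a level per length whose definition was not given, are descriptions without a test. The ratio of WDR12 to PES1 was 0.171 and 0.281 in control cells against 0.824 and 0.782 after depletion. That of BOP1 to PES1 was 0.425 and 0.476 in control cells against 0.853 and 0.687 after depletion. All depleted values lay above the controls for both pairs, and the ratio in each depleted library was closer to 1 than in either control. FBL stood to NOP56 at 7.45 and 15.5 in control cells against 44.0 and 24.6 after depletion, while NOP58 stood to NOP56 at 0.390 and 0.507 in control cells against 0.910 and 0.566 after depletion. NOP10 stood to DKC1 at 3.31 and 5.13 in control cells against 9.86 and 27.6 after depletion, and NHP2 to DKC1 at 0.720 and 1.05 in control cells against 1.56 and 4.56 after depletion. The depleted libraries were the higher in these 4 pairs too, with depleted replicate 2 far above replicate 1 where DKC1 was the divisor. For the catalytic pair of polymerase I, POLR1A to POLR1B was 1.77 and 1.07 in control cells against 0.404 and 0.350 after depletion, so POLR1A was the higher in both controls and POLR1B in both depleted libraries. GAR1 to DKC1, at 0.0627 and 0.172 in control cells against 0.181 and 0.182 after depletion, had 1 control near the depleted values. No ratios of other gene pairs were taken for comparison. Except for BOP1 to PES1, the gene that stood relatively higher after depletion had the shorter coding length of its pair. Fold changes followed coding length across the table, and its part in these ratios was not tested.

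**Figure D4:**
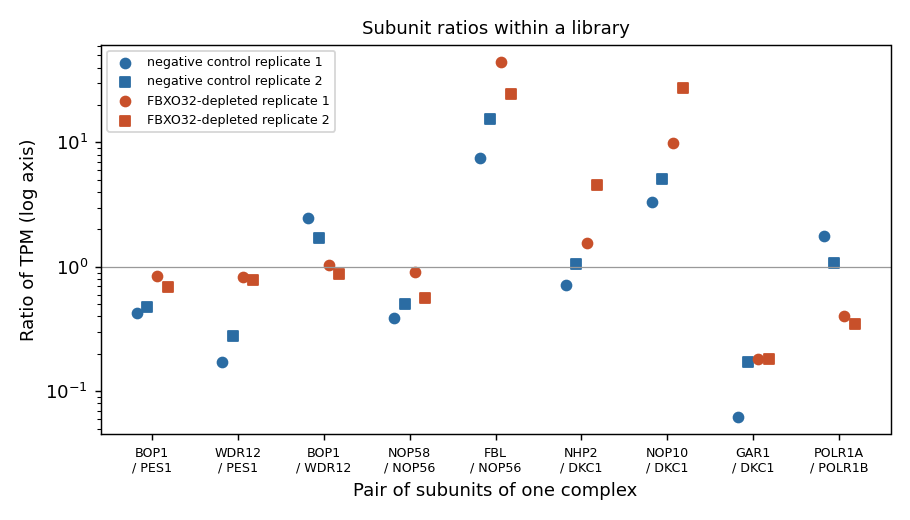
Ratio of the TPM of paired subunits of the same complex (log axis) in each library, with blue for negative control, orange for FBXO32-depleted, circles for replicate 1 and squares for replicate 2. The WDR12 to PES1 ratio rises from 0.171 and 0.281 to 0.824 and 0.782, and the POLR1A to POLR1B ratio goes from above 1 to 0.404 and 0.350.

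Some factors also carry snoRNA genes inside their own introns. By GENCODE 29 the hosts are NCL, NOP56, NOP58, DKC1, WDR43, TSR1 and GNL3, with 25 snoRNA genes on the same strand within them. All 7 hosts fell, and 21 of the 33 other factors fell. All 7 also lie in the class over 1500 and up to 3000 nt of coding length, in which 16 of the 18 factors and 26% of all tested genes were called lower. Among the guests were SNORD20 and SNORD82 in NCL and SNORD56, SNORD57 and SNORD86 in NOP56. Without control replicate 1 the hosts that fell numbered 2 (NCL and NOP56) and the others 9, without control replicate 2 they numbered 3 and 18, and without depleted replicate 2 they numbered 3 and 15. With the coding-length trend removed they numbered 4 and 13, and without the filter on low values 3 and 16.

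Among 118 further ribosome biogenesis genes, listed by complex from textbook knowledge, 57 fell, 1 rose and the other 60 missed the threshold. Their log2 fold changes had a median of -1.05. All 118 were tested, and the share called lower compares with 19.5% of all tested genes. By coding length, 0 of 17 fell up to 750 nt (limma), and 26 of 52 over 750 and up to 1500 nt. Over 1500 and up to 3000 nt 25 of 40 fell, and over 3000 nt 6 of 9. After correction for the length trend 40 of the 118 were called lower, with a median of -0.81. The groups below also differ in coding length, and its part in their counts and medians was not tested. Of 33 further SSU processome genes, 19 fell, among them BMS1, a GTPase with 17 named pseudogene copies (28.4 and 13.4 against 1.57 and 1.27 TPM, -3.09 ± 0.48 (SE, limma adjusted p = 6.53e-09)), ESF1 (-2.81 ± 0.46) and UTP14A (-2.72 ± 0.45). Of 41 pre-60S genes, 23 fell, among them GTPBP4, a nucleolar GTPase (120.4 and 88.0 against 25.0 and 12.9 TPM, -2.45 ± 0.42 (SE, limma adjusted p = 2.28e-07)), its relative GNL2 (-2.49 ± 0.43) and PPAN (-2.57 ± 0.43), which shares sequence with the read-through gene PPAN-P2RY11. The further polymerase I genes gave 5 falls of 13. TAF1D, a subunit of the promoter selectivity factor SL1, had 505 and 503 TPM in control cells against 42.6 and 117 TPM after depletion, a log2 fold change of -2.81 ± 0.38 (SE, limma adjusted p = 3.29e-11), and the polymerase subunit POLR1G and the terminator protein gene TTF1 had -2.54 ± 0.45 and -2.08 ± 0.47. Of 9 further snoRNP core and assembly genes, 4 fell, with RUVBL2 and RUVBL1, the AAA ATPases of the assembly machinery, at -1.61 ± 0.40 and -1.36 ± 0.42 and SHQ1, an H/ACA chaperone, at -1.75 ± 0.47. Of 14 RNA exosome genes, 6 fell, with the nucleases DIS3 (-2.13 ± 0.47) and EXOSC10 (-2.04 ± 0.45) and the ring subunit EXOSC9 (-1.52 ± 0.43) having the smallest p, and the group's median was -0.16, as for all tested genes. Of 8 further pre-40S genes, 0 fell (limma; 1, RIOK1, was lower at an unadjusted p under 0.05), and their median was -0.52.

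EMG1, the methyltransferase for the hypermodified base of 18S rRNA, was the 1 gene of the 118 that rose, with 5.56 and 15.5 TPM in control cells against 17.3 and 29.4 TPM after depletion and a log2 fold change of 1.18 ± 0.45 (SE, limma adjusted p = 0.04). Of the further genes named above as falling, GTPBP4, GNL2, PPAN, TAF1D, RUVBL1, RUVBL2, DIS3 and EXOSC9 overlap other coding genes in GENCODE, where counting could split reads. EMG1 likewise overlaps LPCAT3 and C1S, and its second control lay close to its first depleted value. Its call ended without control replicate 1 and without depleted replicate 2 (0 further genes were called higher in either).

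In all, 11 of the 28 calls among the factors held under each of the 13 alternatives in which they were tested: those of NCL, MYBBP1A, UBTF, TCOF1, NOP56, NOLC1, NAT10, NOP14, RRP12, PES1 and NOP2. They were also the 11 called without control replicate 1, where 2.99% of all genes were called lower and the factors' share was 27.5%. The factors' share was 52.5% without control replicate 2 (21 factors), 77.5% without depleted replicate 1 (31 factors) and 45% without depleted replicate 2 (18 factors), against 13%, 20.6% and 11.4% of all genes. Without depleted replicate 1 the 31 included 27 of the 28, HEATR1 being the exception, and added UTP15, RRP9, WDR12 and RRS1. Of the 118 further genes, the number called lower was 8 without control replicate 1, 36 without control replicate 2 and 29 without depleted replicate 2.

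**Figure D5:**
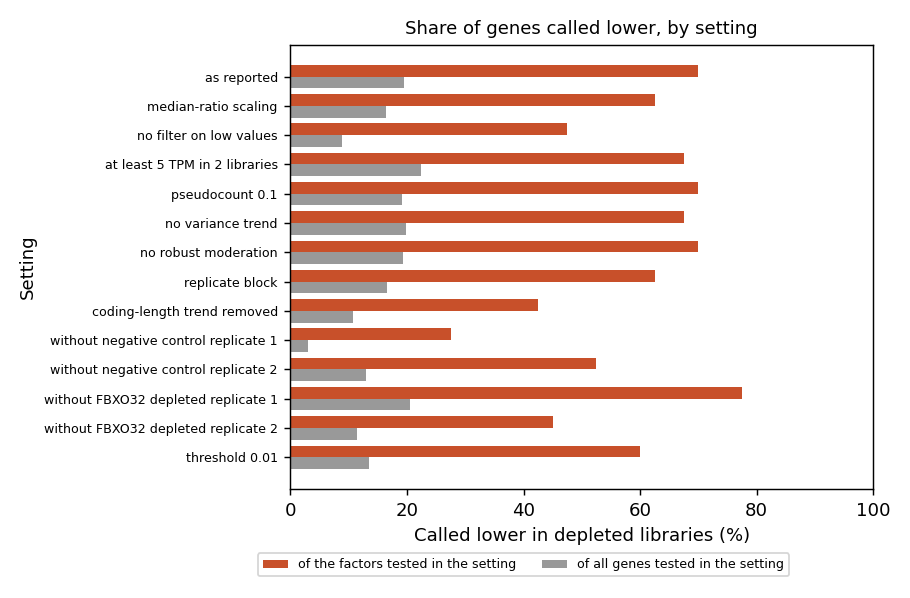
Share of genes called lower in the depleted libraries (%, bars from 0) in each setting, for the 40 factors (orange; 37 of them at a minimum of 5 TPM) and for all genes tested (grey). The factors' bar is the longer in every setting shown, from 27.5% against 2.99% without control replicate 1 to 77.5% against 20.6% without depleted replicate 1.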

How the data were processed

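Ribosome-protected fragments of 4 PANC-1 libraries were used. Per the labels' protocols, free RNA was digested for 45 min with nucleases, fragments over 17 nt were kept by size exclusion, and after rRNA removal a small RNA library kit was used. Per the file headers the deposited values are TPM, 1 per gene and library, computed by the authors. Tools listed in the submitters' processing notes are STAR, RSEM, fastp, DESeq2 and Bowtie2 2.2.8, with GRCh38 as the build. Annotation, length definition, use of strand and filters were not given in the sources used here. TPM is relative within a library and holds no depth, so no counting interval can be given. Columns named KO were read as depleted and NS, the only other arm, as control, which rests on the names.

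Symbols were matched by Ensembl identifier (19702 of 20307 genes). Genes reaching 1 TPM in 2 or more libraries were tested on log2(TPM + 1) with limma 3.58.1 in R 4.3.3 (trend and robust moderation, no covariates, Benjamini-Hochberg over 11623 genes, threshold 0.05). Fold changes on this scale understate changes of low genes. With infinite prior degrees of freedom for 35 of the 40 factors, most p-values rest on the spread pooled over genes. On simulated data with the spread of these 11623 genes 89 of 100 genes with a log2 change of 2 were called, 11 of 100 with a log2 change of 1, and 7 of 11423 with none, so a gene that did not pass is not shown to be unchanged. Far fewer genes were changed in the simulation than the 2990 called in the data. The Benjamini-Hochberg cutoff was therefore stricter in the simulation, and these shares may differ in the data. Positions and coding lengths (longest coding sequence) are from GENCODE 29 on GRCh38, and the length trend was a loess fit with span 0.3. Of the factors, 7 have named pseudogene copies and 15 overlap another coding gene, where counting could split reads.

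The factors, lists and alternatives were chosen with earlier results of these data known. The rule for naming gave values in every library for each factor past the threshold and, per role, for the largest change that did not pass; the other factors were added so that all 40 are accounted for. RIOK1 and SNU13 were named after their values were seen. Among the further genes, those that rose and, per group, the 3 smallest p among those that fell are named.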

Additional observations from a re-analysis of the deposited data

How the results depend on the processing

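Over the 13 alternatives, 517 values of single factors were recomputed: 433 kept direction and side of the threshold, 66 lost the call, 4 gained one and 14 changed sign, all of the last in factors that had not passed. Factors called lower numbered 19 without the filter on low values, 17 with the coding-length trend removed (median log2 fold change -0.93) and 11 to 31 when a library was left out; 0 were called higher in any setting. Further genes called lower numbered 32 without the filter on low values and 8 to 61 when a library was left out, where their median ran from -1.32 to -0.60. The call of EMG1 ended at a threshold of 0.01, with the replicate block, without the filter, and with the length trend removed (0 further genes higher in each), 3 were higher with median-ratio scaling, and 0 to 1 when a library was left out. Of all genes, 1322 were lower and 207 higher without the filter, 1233 lower with the length trend removed, 260 higher at 0.01, 1251 higher with median-ratio scaling, and 347 to 2389 lower and 37 to 646 higher when a library was left out. With median-ratio scaling NOP16, SBDS and UTP4 turned to 0.073, 0.14 and 0.16, and with the length trend removed NHP2 and UTP4 turned to -0.051 and 0.59. When a library was left out the log2 fold change ran from -1.03 to 0.11 for GAR1, -0.21 to 0.14 for SBDS, -1.35 to 0.26 for UTP15, -0.24 to 0.18 for UTP4, -0.27 to 0.00787 for NOP16 and -0.045 to 0.35 for POLR1B. The lone library left in a group is then assumed to vary like the others. Across 11623 genes, the deviations of same-numbered libraries from their group means had r = -0.05. This correlation cannot show whether the numbers pair the libraries, and the labels do not say. With the replicate number as a block, 25 factors and 50 further genes were called lower, and the calls of FBL, HEATR1 and TSR1 ended. At a threshold of 0.01 the calls of POLR1A, FBL, HEATR1 and TSR1 ended, and with no variance trend in limma that of FBL ended. The causes of these changes were not tested.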
